A study of Danio rerio with 3 samples.

Results

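The genes described here encode subunits of the mitochondrial respiratory chain and of ATP synthase, with some of their assembly factors. They were taken by name, under a rule set with earlier results of these data known. The rule takes every probe set whose only gene symbol on the platform starts with nduf, uqcr or atp5. It also takes those that start with sdha, sdhb, sdhc or sdhd, or with cox and a digit from 4 to 8. This gave 92 probe sets of 85 genes, out of 8793 genes with a probe set of their own, and each gene is represented by the probe set that was brightest on average. By prefix, 39 genes belong to complex I, 7 to complex II, 7 to complex III, 14 to complex IV and 18 to complex V. Of the 85, 82 lay above the signal floor of 101.7 in every array, cox4i1l and cox4i2 lay above it in some arrays, and the complex II assembly factor gene sdhaf3 lay below it in all of them. The sdh prefix also takes in 3 assembly factor genes, sdhaf2, sdhaf3 and sdhaf4, and the nduf prefix takes in 6, named ndufaf.

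The respiratory chain lies in the inner mitochondrial membrane. Complex I takes electrons from NADH and complex II takes them from succinate, ubiquinone and cytochrome c carry them on through complex III, and complex IV hands them to oxygen. Complexes I, III and IV pump protons as they do so, and ATP synthase, called complex V, lets the protons back through a rotating ring and makes ATP. Most subunits are encoded in the nucleus and imported, a few are encoded by mitochondrial DNA, and muscle, heart and neurons are tissues known for a high content of these complexes.

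RNA came from whole zebrafish embryos at 24 hours post-fertilization, from 3 pools of 400 embryos with 1 array each. One pool had received an siRNA against zfPGRP-SC, a peptidoglycan recognition protein of the zebrafish, the next a control siRNA, and the last no injection; both siRNAs were given to zygotes at 300 ng/µl in a volume of 1 nL per embryo. Embryos of all parents were mixed at random before the groups were formed, and the label of the first pool names zfPGRP-SC without the word siRNA, which the series' design text supplies. The level of zfPGRP-SC itself was not analysed here, so the arrays give no check of the knockdown. With 1 array per group there is no spread between replicates and no test, so every difference below is a difference between pools of embryos and their arrays, and the number of arrays limits the precision. Fewer cells of a type and less RNA per cell cannot be told apart in whole embryos. Values are scaled signal intensities, and a ratio is the log2 of one array's signal over another's after signals under the floor were set to it. Signals of different genes come from different probes and are not compared with each other.

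The whole-embryo label was checked against markers of several tissues. All 20 skeletal muscle markers on the array, of 30 listed, were above the floor in every array, as were 9 of 9 primitive erythrocyte, 9 of 11 neuron, 4 of 5 heart muscle, 6 of 9 tail bud and 5 of 6 pronephros and ionocyte markers. Of all 8793 genes, 5751 were above the floor in every array. The shorter lists, and above all the tail bud list, therefore say little about the label. The arrays had median signals from 161.7 to 169.5 over 15502 probe sets. The ratio of 5' to 3' signal of the array maker's acta1 control, which reports on the completeness of the labelled RNA, was 0.127 with PGRP-SC siRNA, 0.205 with control siRNA and 0.369 without injection. That of its GAPDH control was 0.498, 0.347 and 0.350 in the same order.

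Respiratory chain and ATP synthase genes had slightly lower signals with PGRP-SC siRNA than with control siRNA, and few of them differed much. The median log2 ratio over the 83 members with a ratio was -0.14, a signal lower by 8.96%, while the median over all 6514 genes with a ratio was -0.0026. The ratio was under 0 for 56 of the 83 members, or 67.5%, against 50.3% of all genes. No member was 2-fold apart in either direction, where 2.93% of all genes were at least 2-fold lower and 2.87% at least 2-fold higher. At 1.5-fold, 7 members were lower, which is 8.43% and no more than the 11.5% of all genes, and 1 was higher, against 10.7% of all genes. The middle of the members' distribution was thus lower than that of all genes, while large differences were no more frequent among them. Their ratios spanned -0.78 to 0.73, with a standard deviation across genes of 0.298 over the 82 members above the floor, against 0.511 over 5669 other such genes. These other genes were not matched to the members in signal. With a mean signal of at least 1000, the interquartile range was -0.35 to 0.05 over 70 members. It was -0.26 to 0.24 over 1838 other genes of that signal.

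Against uninjected embryos the median log2 ratio with PGRP-SC siRNA was -0.29 over 84 members, a signal lower by 18.2%, and 0.023 over all 6565 genes. The ratio was under 0 for 70 of the 84, or 83.3%, against 48.2% of all genes. At least 1.5-fold lower were 18 members, or 21.4%, against 15.6% of all genes, and 4 were at least 2-fold lower, or 4.76%, against 6.09%. At least 1.5-fold higher were 2 members and at least 2-fold higher was 1, where all genes gave 16.2% and 5.76%. The share at least 2-fold lower depended on the genes compared. With a mean signal of at least 1000, it was 5.71% of 70 members and 4.90% of 1838 other genes. At least 1.5-fold lower were 25.7% of these members and 13.8% of these other genes.

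Between the control arrays, the median with control siRNA over uninjected was -0.17 over 84 members, a signal lower by 11.4%, and 0.016 over all 6462 genes. The ratio was under 0 for 67 of the 84, or 79.8%, against 47.7% of all genes. No member was 2-fold apart, where 0.774% of all genes were at least 2-fold lower and 1.11% at least 2-fold higher. At 1.5-fold 3 members were lower and 2 higher, against 5.08% and 6.47% of all genes. The members' median between these arrays, neither of which had the siRNA against zfPGRP-SC, was -0.17, beside -0.14 between the siRNA arrays. The 3 comparisons share arrays: the PGRP-SC siRNA array enters both comparisons with PGRP-SC siRNA on top, and each control array also enters the comparison between the controls. The plot of log2 ratios by complex shows all members of the 3 comparisons.

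**Figure D1:**
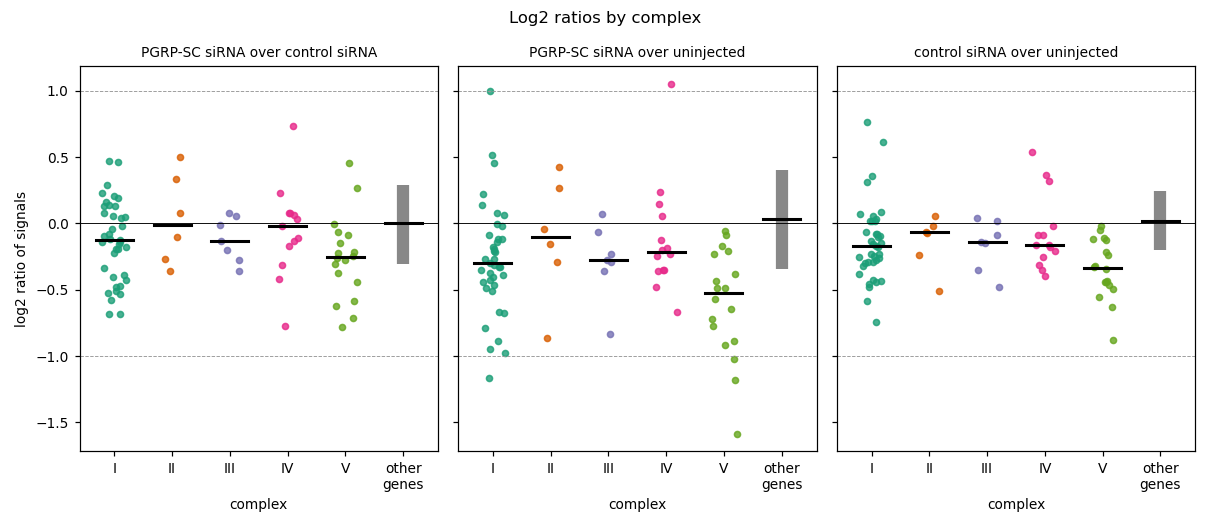
Log2 ratio of signals (vertical axis) of each gene of complexes I to V, 1 panel per comparison, each point a gene and each black line a median; the grey bar spans the interquartile range of all other genes, and dashed lines mark 2-fold. All 18 complex V genes lie below 0 in both comparisons with uninjected embryos, and their medians of -0.53 and -0.33 are the lowest of the 5 complexes there. The points of cox4i1l and cox4i2 against uninjected embryos are bounds, with 1 side at the floor.

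Complex V had the lowest median of the 5 complexes in each comparison. Over its 18 genes the median log2 ratio was -0.25 for PGRP-SC siRNA over control siRNA, -0.53 for PGRP-SC siRNA over uninjected and -0.33 for control siRNA over uninjected. The matching medians were -0.12, -0.30 and -0.17 over the 39 genes of complex I, and -0.14, -0.28 and -0.14 over the 7 of complex III. They were -0.02, -0.22 and -0.16 in complex IV, over 13 genes in the first comparison and 14 in the others, and -0.01, -0.10 and -0.07 over 6 genes of complex II. All 18 complex V genes had a lower signal with PGRP-SC siRNA than in uninjected embryos, where 48.2% of all genes did. Of the 18, 8 were at least 1.5-fold lower, against 15.6% of all genes, 7 of 39 genes in complex I and 1 gene in each of the other complexes. The ranges of the complexes overlapped in every comparison, and with 1 array per group the difference between complexes was not tested.

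The c subunits of ATP synthase form the ring that turns as protons pass, and their genes ranged from large differences to almost none. The signal of atp5mc1 was 3319 with PGRP-SC siRNA, 5429 with control siRNA and 9964 in uninjected embryos, for log2 ratios of -0.71 over control siRNA and -1.59 over uninjected. It was the member with the lowest ratio against uninjected embryos, where 1.80% of all genes had a ratio as low or lower, and with -0.88 it was also the lowest member between the controls. Its relative atp5mc3a had 5008 with PGRP-SC siRNA, 5948 with control siRNA and 7417 in uninjected embryos. The remaining c subunit gene, atp5mc3b, had 13201 with PGRP-SC siRNA, 13258 with control siRNA and 13707 in uninjected embryos. Each of the 3 genes was lowest with PGRP-SC siRNA and highest in uninjected embryos, with log2 ratios of PGRP-SC siRNA over uninjected of -1.59, -0.57 and -0.05. In mammals the genes for this subunit encode the same mature protein behind different import signals, and how far their probes cross-react was not tested.

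The peripheral stalk holds the catalytic head still while the ring turns. The signal of its subunit b gene atp5pb was 4195 with PGRP-SC siRNA, 6452 with control siRNA and 9499 in uninjected embryos, log2 ratios of -0.62 and -1.18 with PGRP-SC siRNA over control siRNA and over uninjected. The coupling factor 6 gene atp5pf had 3202 with PGRP-SC siRNA, 3880 with control siRNA and 5270 in uninjected embryos. The subunit d gene atp5pd was nearer to its controls, with log2 ratios of -0.15 over control siRNA and -0.49 over uninjected. All 3 stalk genes were lowest with PGRP-SC siRNA and highest in uninjected embryos.

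Of the catalytic head, the gamma subunit gene atp5f1c, which encodes the shaft that turns within it, had the lowest ratios of PGRP-SC siRNA over each control. Its signal was 4041 with PGRP-SC siRNA, 6073 with control siRNA and 7611 in uninjected embryos, log2 ratios of -0.59 and -0.91 with PGRP-SC siRNA. The catalytic beta subunit gene atp5f1b had 5750 with PGRP-SC siRNA, 7447 with control siRNA and 8047 in uninjected embryos, and the delta subunit gene atp5f1d had log2 ratios of -0.26 over control siRNA and -0.38 over uninjected. The epsilon subunit gene atp5f1e went the other way against control siRNA, at 2935 with PGRP-SC siRNA and 2445 with control siRNA, and stood highest in uninjected embryos at 3444. The alpha subunit was measured only by a probe set that the platform also assigns to another gene, gcdha, so it is not among the members. That probe set had 5362 with PGRP-SC siRNA, 6619 with control siRNA and 7943 in uninjected embryos.

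The small subunits around the ring, several of which hold ATP synthase dimers together, were all lower with PGRP-SC siRNA than with control siRNA. The gene atp5md, whose product is also known as DAPIT, had 1473 with PGRP-SC siRNA, 2532 with control siRNA and 2992 in uninjected embryos. Its log2 ratio over control siRNA of -0.78 was the lowest of any member, although 6.14% of all genes were as low or lower. The subunit g gene atp5l had 3882 with PGRP-SC siRNA, 5282 with control siRNA and 7182 in uninjected embryos, while its other probe set gave signals from 1.33 to 44.03, under the floor. The subunit e gene atp5mea had log2 ratios of -0.30 and -0.77 with PGRP-SC siRNA over control siRNA and over uninjected, and its relative atp5meb had -0.07 and -0.09. The ratios of atp5mj were -0.21 and -0.64, and those of atp5mf were -0.22 and -0.44.

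The inhibitory factor blocks ATP synthase from running backwards, and its 2 genes had ratios of opposite sign for PGRP-SC siRNA over control siRNA. The gene atp5if1a had 2656 with PGRP-SC siRNA, 1933 with control siRNA and 2993 in uninjected embryos, so the control siRNA array was the low one. Its log2 ratio of 0.46 was the highest of complex V for PGRP-SC siRNA over control siRNA, and its -0.63 for control siRNA over uninjected was below that of every gene of the complex but atp5mc1. The gene atp5if1b had 702.7 with PGRP-SC siRNA, 746.7 with control siRNA and 811.2 in uninjected embryos.

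**Figure D2:**
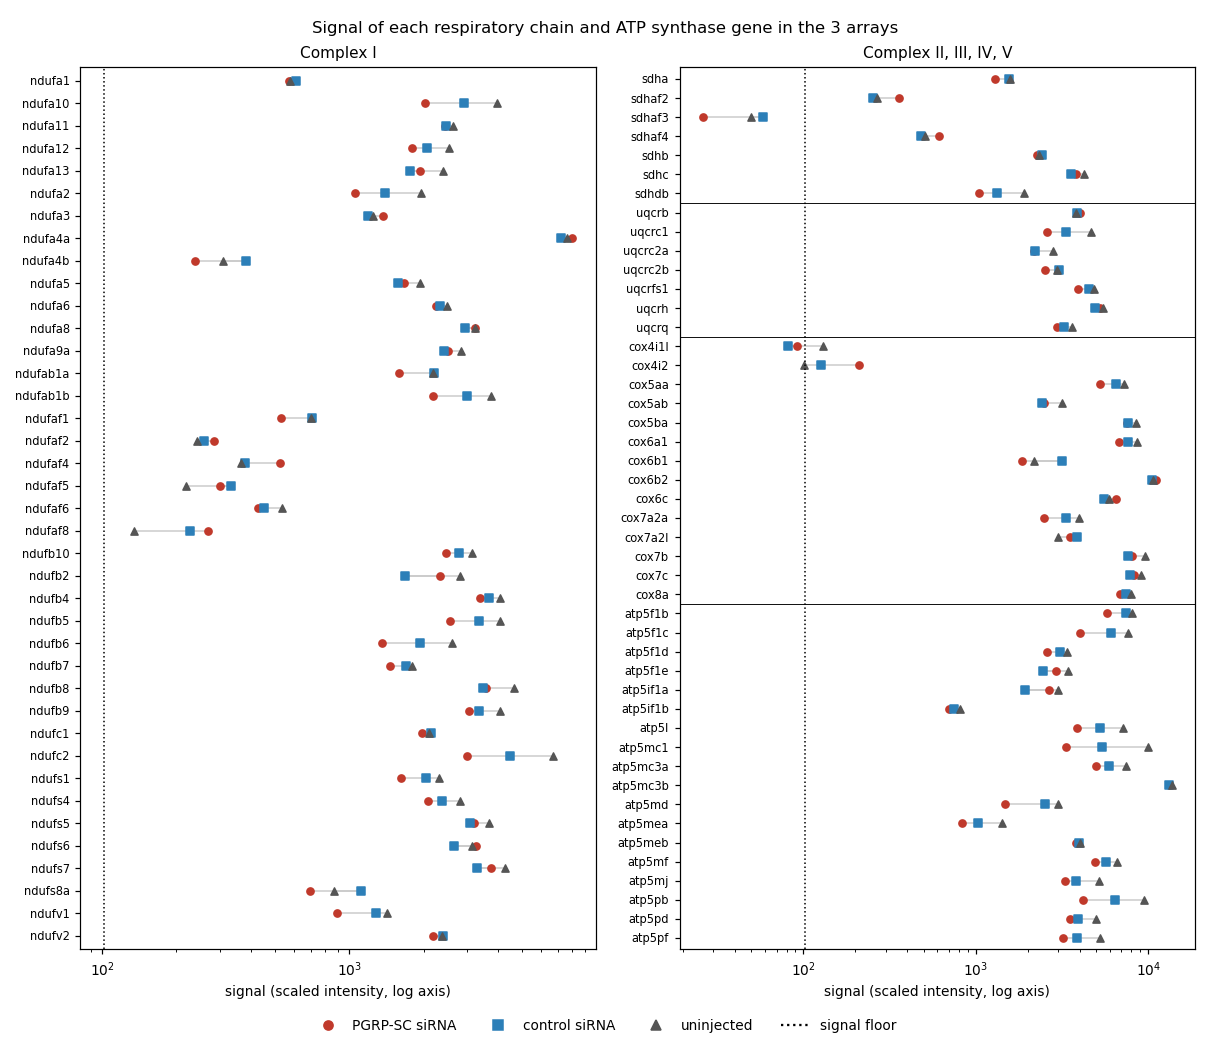
Signal of each member (horizontal axis, scaled intensity, log scale) in the PGRP-SC siRNA array (red circles), that of control siRNA (blue squares) and that of uninjected embryos (grey triangles), with 1 row per gene and rows grouped by complex; the dotted line is the signal floor of 101.7. The points of atp5mc1 spread from 3319 with PGRP-SC siRNA to 9964 in uninjected embryos, those of atp5mc3b almost coincide, and those of ndufaf8 run the other way, with 267.4 with PGRP-SC siRNA and 134.1 in uninjected embryos. Positions along the axis are not comparable between genes.

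Most complex I genes had lower signals with PGRP-SC siRNA, 25 of 39 or 64.1% against control siRNA, where 50.3% of all genes did, and 32 of 39 or 82.1% against uninjected embryos, where 48.2% of all genes did. The accessory subunit gene ndufc2 had 2986 with PGRP-SC siRNA, 4467 with control siRNA and 6690 in uninjected embryos, log2 ratios of -0.58 and -1.16 with PGRP-SC siRNA over control siRNA and over uninjected. It was the only complex I gene at least 2-fold lower than in uninjected embryos. The accessory subunit gene ndufa10 followed at 2024 with PGRP-SC siRNA, 2904 with control siRNA and 3979 in uninjected embryos. The next was ndufb6, at 1359 with PGRP-SC siRNA, 1936 with control siRNA and 2619 in uninjected embryos, with its other probe set under the floor throughout. In each of these genes the PGRP-SC siRNA array was lowest and the uninjected array highest. The genes ndufa2, ndufab1b and ndufb5 had the same order, with log2 ratios over uninjected of -0.88, -0.79 and -0.67, of which ndufab1b encodes an acyl carrier protein that also serves mitochondrial fatty acid synthesis.

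The core subunits of complex I carry the flavin and the iron-sulfur clusters through which electrons pass, and 5 of them were measured. The gene ndufv1, which encodes the subunit that binds NADH, had 889.7 with PGRP-SC siRNA, 1289 with control siRNA and 1424 in uninjected embryos, a log2 ratio of -0.53 over control siRNA. The gene ndufs8a had 693.9 with PGRP-SC siRNA, 1112 with control siRNA and 869.3 in uninjected embryos, so that its ratio of -0.68 over control siRNA rests on a high control siRNA array and was -0.33 over uninjected. The largest subunit's gene ndufs1 had log2 ratios of -0.34 and -0.51 with PGRP-SC siRNA, and ndufs7 had 0.19 and -0.19. The gene ndufv2 had -0.14 and -0.12 by its brighter probe set and 0.15 and 0.05 by the other, which differ by less than 0.3.

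Among the 28 accessory subunit genes, 18 had a ratio under 0 for PGRP-SC siRNA over control siRNA and 25 had one over uninjected. These were 64.3% and 89.3%, against 50.3% and 48.2% of all genes. The highest ratio over control siRNA was that of ndufb2, at 0.47, whose signals were 2323 with PGRP-SC siRNA, 1676 with control siRNA and 2804 in uninjected embryos. Like atp5if1a it was low in the control siRNA array. Its ratio of -0.74 was the lowest of complex I between the controls. The gene ndufa4b had 238.2 with PGRP-SC siRNA, 382.3 with control siRNA and 308.1 in uninjected embryos, a log2 ratio of -0.68 over control siRNA on a weak signal, whereas its relative ndufa4a had a ratio of 0.16. Both are placed in complex I by prefix, although the mammalian protein is now counted with complex IV.

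Assembly factors help to build the complexes and are not part of them. Of the 8 measured ndufaf and sdhaf genes, 5 had a ratio above 0 with PGRP-SC siRNA over control siRNA and 6 over uninjected. Under 0 were 37.5% and 25% of the 8, against 50.3% and 48.2% of all genes. The medians of the 8 were 0.18 and 0.35, where the 74 subunit genes without assembly factors and inhibitors had -0.15 over 73 of them and -0.32. The further assembly factors described below did not share this direction. Their medians over 22 measured genes were -0.31 and -0.22. The complex I assembly factor gene ndufaf8 had 267.4 with PGRP-SC siRNA, 227.8 with control siRNA and 134.1 in uninjected embryos, close to 2-fold over uninjected. The gene ndufaf4 had 524.7 with PGRP-SC siRNA, 379.6 with control siRNA and 366.0 in uninjected embryos. The gene ndufaf5 had 299.7 with PGRP-SC siRNA, 333.7 with control siRNA and 218.3 in uninjected embryos, so both injected arrays were above the uninjected one. The complex II assembly factor genes sdhaf2 and sdhaf4 had log2 ratios over control siRNA of 0.50 and 0.34. Going the other way, ndufaf1 had -0.43 by its brighter probe set and 0.13 by its weaker one, at signals from 254.6 to 281.6. The assembly factor genes had mean signals from 44.69 to 646.4, and the subunit genes had a median mean signal of 3076, and the part of signal strength in this difference was not tested.

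Succinate dehydrogenase, complex II, is also an enzyme of the citric acid cycle, and its catalytic subunits are the flavoprotein SDHA and the iron-sulfur protein SDHB. The gene sdha had 1297 with PGRP-SC siRNA, 1560 with control siRNA and 1583 in uninjected embryos, and sdhb had 2274, 2437 and 2342 in the same arrays. Of the membrane anchors, sdhdb had 1043 with PGRP-SC siRNA, 1335 with control siRNA and 1901 in uninjected embryos, and sdhc had 3796, 3592 and 4233. With a log2 ratio of -0.87 over uninjected, sdhdb was the complex II gene farthest from its control, and the median of the 4 subunit genes without the assembly factors was -0.18 over control siRNA and -0.22 over uninjected.

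In complex III the 4 genes of the core and Rieske subunits had log2 ratios over control siRNA from -0.36 to -0.0093. The last was that of uqcrc2a, which hardly differed. The 3 genes of small subunits ranged from -0.14 to 0.08. The core protein gene uqcrc1 had 2603 with PGRP-SC siRNA, 3333 with control siRNA and 4647 in uninjected embryos, a log2 ratio of -0.84 over uninjected. The Rieske iron-sulfur protein gene uqcrfs1 had 3937 with PGRP-SC siRNA, 4531 with control siRNA and 4824 in uninjected embryos. Both had the order of arrays seen in most of complex V. The core protein gene uqcrc2a had 2189 with PGRP-SC siRNA, 2203 with control siRNA and 2811 in uninjected embryos. Its relative uqcrc2b had 2525 with PGRP-SC siRNA, 3059 with control siRNA and 2968 in uninjected embryos. The small subunit genes uqcrb and uqcrh had log2 ratios over control siRNA of 0.06 and 0.08, and over uninjected of 0.07 and -0.07.

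Complex IV, cytochrome c oxidase, had genes on both sides of 0. For PGRP-SC siRNA over control siRNA 7 of 13 ratios were under 0, or 53.8%, near the 50.3% of all genes. For PGRP-SC siRNA over uninjected 10 of 14 were, or 71.4%, against 48.2% of all genes. The gene cox7a2a had 2488 with PGRP-SC siRNA, 3328 with control siRNA and 3962 in uninjected embryos, and its ratio of -0.67 was the lowest of the complex over uninjected. The gene cox5aa had 5231 with PGRP-SC siRNA, 6518 with control siRNA and 7281 in uninjected embryos. Both had their lowest signal with PGRP-SC siRNA and their highest without injection. The gene cox5ab had 2473 with PGRP-SC siRNA, 2414 with control siRNA and 3174 in uninjected embryos. Its ratio of -0.39 was the lowest of the complex between the controls. The gene cox6b1 had 1851 with PGRP-SC siRNA, 3162 with control siRNA and 2175 in uninjected embryos, so its log2 ratio of -0.77 over control siRNA comes with a high control siRNA array and was -0.23 over uninjected. Genes of other subunits, cox5ba, cox6b2, cox6c, cox7b, cox7c and cox8a, stayed between -0.11 and 0.23 over control siRNA. Below that range was cox6a1, with log2 ratios of -0.17 over control siRNA and -0.35 over uninjected. The gene cox7a2l, whose product joins complexes III and IV into supercomplexes in mammals, had 3543 with PGRP-SC siRNA, 3879 with control siRNA and 3014 in uninjected embryos. Its log2 ratio with PGRP-SC siRNA was -0.13 over control siRNA and 0.23 over uninjected.

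The COX4 genes were close to the floor. The gene cox4i2, whose mammalian relative encodes the isoform used when oxygen is low, had 210.9 with PGRP-SC siRNA, 126.7 with control siRNA and 100.9 in uninjected embryos, just under the floor. This gave a log2 ratio of 0.73 over control siRNA, the highest of all members, and a bound of at least 2.07-fold over uninjected. The gene cox4i1l had 91.79 with PGRP-SC siRNA and 81.77 with control siRNA, both under the floor, and 129.7 in uninjected embryos. No ratio was therefore given between the siRNA arrays for cox4i1l.

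Related genes did not always move together. Among 10 such families, the ratios over control siRNA of cox6b1 and cox6b2 lay 0.85 apart, those of ndufa4b and ndufa4a 0.84, those of atp5mc1 and atp5mc3b 0.70, and those of atp5if1a and atp5if1b 0.55. The acyl carrier protein genes ndufab1a and ndufab1b, at -0.48 and -0.47, were the most alike there. Over uninjected embryos the c subunit family lay 1.53 apart and the COX7A2 family 0.90.

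**Figure D3:**
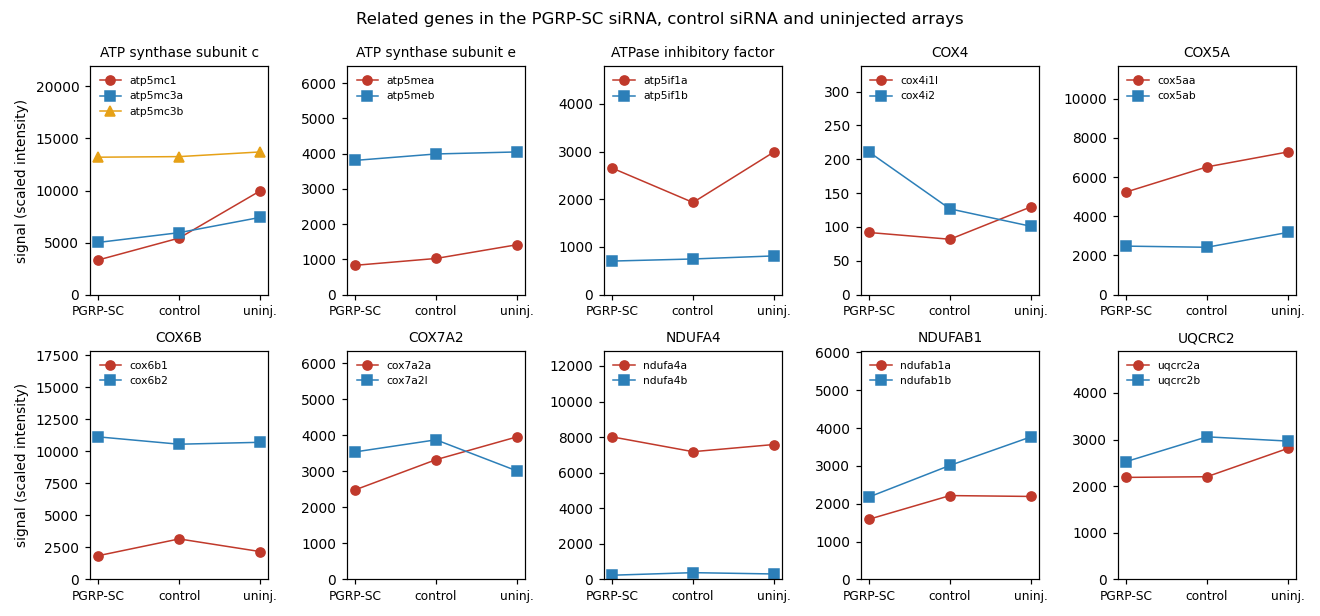
Signal (vertical axis, scaled intensity, starting at 0) of related genes in the PGRP-SC siRNA, control siRNA and uninjected arrays, 1 panel per family, with lines that only connect the points of a gene. The gene atp5mc1 lies at 3319 with PGRP-SC siRNA and 9964 in uninjected embryos while atp5mc3b stays between 13201 and 13707, and cox6b1 peaks with control siRNA at 3162.

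Other mitochondrial genes, from lists of the same pathway, were also shifted to lower signals in most cases. Over all genes, 50.3% had a ratio under 0 for PGRP-SC siRNA over control siRNA, and 2.93% were at least 2-fold lower. Of 13 electron carrier genes, 12 had a ratio under 0 for PGRP-SC siRNA over control siRNA, with a median of -0.23 and none 2-fold apart. They include cyc1, a complex III gene that the prefixes of the rule do not take in. Its signal was 4170 with PGRP-SC siRNA, 4260 with control siRNA and 5167 in uninjected embryos. Cytochrome c, cycsb, had 4569 with PGRP-SC siRNA, 6145 with control siRNA and 7047 in uninjected embryos, and the ends of this list were genes of ubiquinone synthesis or function, coq9 at -0.78 and coq10a at -0.54, and coq8aa at -0.02 and coq7 at 0.12. Of 20 citric acid cycle and pyruvate dehydrogenase genes with a ratio, 15 were under 0 with a median of -0.19, and 1 was at least 2-fold lower. That gene was mdh1ab, a cytosolic malate dehydrogenase on the list, with 359.1 with PGRP-SC siRNA, 983.2 with control siRNA and 1989 in uninjected embryos, and the citrate synthase gene cs had 2046, 3160 and 3770. Among genes of that list above the floor in every array, the highest over control siRNA were ogdha and suclg1. The gene ogdha, of the oxoglutarate dehydrogenase complex, was at 0.13, and the succinyl-CoA ligase gene suclg1 at 0.03. Over uninjected embryos these lists had medians of -0.50 and -0.48.

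Of 32 genes of mitochondrial import and the inner membrane, 23 had a ratio under 0 over control siRNA, with a median of -0.22. This was 71.9%, against 50.3% of all genes. At least 2-fold lower were 2, or 6.25% against 2.93% of all genes, the prohibitin genes phb2a at -1.70 and phb2b at -1.03. The import genes timm21 and dnajc19 were the highest, at 0.49 and 0.39. The list of further assembly factors, 2 of whose 22 measured genes are also members, had a median of -0.31 over control siRNA and -0.22 over uninjected. This list had 15 and 14 of the 22 under 0, or 68.2% and 63.6%, against 50.3% and 48.2% of all genes. It held the copper chaperone gene cox17, at 1063 with PGRP-SC siRNA, 2415 with control siRNA and 3826 in uninjected embryos, and the complex IV assembly gene cox14 at the other end, at 1305 with PGRP-SC siRNA, 631.7 with control siRNA and 659.3 in uninjected embryos. Next to these ends were the ATP synthase assembly gene atpaf2 at -0.95 and sdhaf2 at 0.50. Carriers and porins had a median of -0.33 over 15 genes, of which 4 had a bound with 1 side at the floor. They went both ways, with vdac3 at -0.89 and vdac1 at 0.35, both genes of porins of the outer membrane. The porin gene vdac2 was at -0.0060. The uncoupling protein gene ucp1 had the lowest ratio of that list among genes measured above the floor throughout, -1.21, and the carnitine carrier gene slc25a20 the highest, 0.69.

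Genes that regulate mitochondrial biogenesis or copy mitochondrial DNA had a median of -0.09 over control siRNA, across 9 genes. For PGRP-SC siRNA over uninjected their median was 0.18, with 5 of the 9 above 0. Under 0 were 44.4% of the 9, near the 48.2% of all genes. Between the controls their median was 0.07. The ends of this list over control siRNA were the coactivator gene ppargc1b at 0.83 and the mitochondrial transcription factor gene tfam at 0.16, and the DNA-binding protein gene ssbp1 at -0.43 and the transcription factor gene yy1a at -0.26. Of the genes in mitochondrial DNA, only COX1, the catalytic subunit of complex IV, had a probe set of its own here. Its brightest probe set had 47555 with PGRP-SC siRNA, 41277 with control siRNA and 47328 in uninjected embryos, and its other probe sets had log2 ratios over control siRNA of -0.06 and 0.01. The probe sets differed in sign for control siRNA over uninjected, at -0.20 for the brightest and 0.12 and 0.36 for the others. For PGRP-SC siRNA over uninjected they had 0.0069, 0.05 and 0.37 in the same order. The vacuolar ATPase, a rotary pump of other membranes, lay on the other side of 0, with a median of 0.27 over control siRNA. Of its 14 genes 11 had a ratio above 0. Under 0 were 21.4% of them, against 50.3% of all genes. The ends of this list were atp6v0cb at 0.86 and atp6v1e1b at 0.48, and atp6v1c1b at -0.63 and atp6v1b2 at -0.51.

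**Figure D4:**
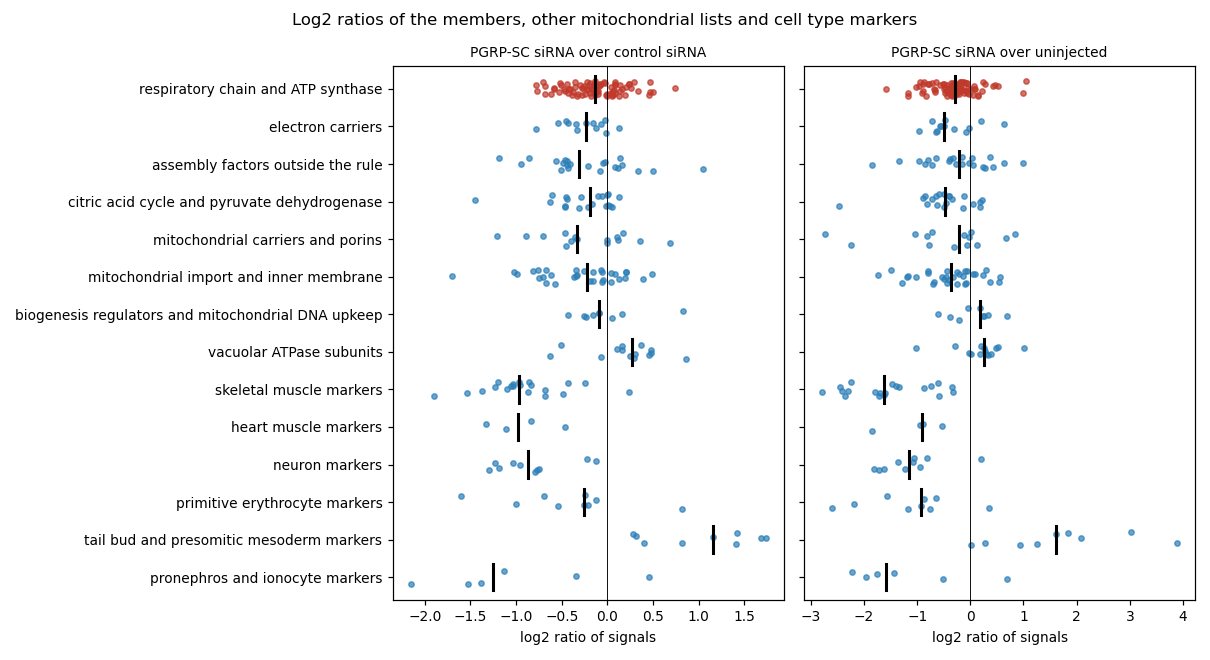
Log2 ratio of signals (horizontal axis) of the members (red) and of the genes of the other lists (blue) for PGRP-SC siRNA over control siRNA on the left and over uninjected on the right, each point a gene and each black line a list's median; the horizontal scales of the panels differ. The members are centred at -0.14 and -0.29, while skeletal muscle markers are centred at -0.96 and -1.62 and tail bud markers at 1.15 and 1.61.

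For PGRP-SC siRNA over control siRNA, every marker list except that of the tail bud had a lower median than the members. Pronephros and ionocyte markers had the lowest. All but 1 of the 20 skeletal muscle markers had a ratio under 0 over control siRNA and 9 were at least 2-fold lower. These were 95% and 45%, against 50.3% and 2.93% of all genes. The median of the skeletal muscle markers was -0.96. Their summed signal was 84778 with PGRP-SC siRNA, 148083 with control siRNA and 201522 in uninjected embryos. The 4 heart muscle markers with a ratio were all under 0, with a median of -0.98, as were the 10 neuron markers, with a median of -0.87. Summed over all markers of the list on the array, heart muscle had 1541 with PGRP-SC siRNA, 3276 with control siRNA and 3632 in uninjected embryos, and neurons had 3600, 6085 and 7478. Primitive erythrocyte markers had a median of -0.26 and pronephros and ionocyte markers -1.26, while the 9 tail bud markers were all above 0, with a median of 1.15. For control siRNA over uninjected, where the members had -0.17, the order of the lists differed. There the medians were -0.58 for skeletal muscle, -0.12 for heart muscle and -0.25 for neuron markers. They were -0.60 for primitive erythrocyte, -0.10 for pronephros and ionocyte and 0.60 for tail bud markers. Under the floor in all arrays were the heart marker nkx2.5 and the neuron marker snap25b, and no other marker of these lists. The part of these tissues, and of the 5' to 3' signal ratios given above, in the lower signals of the members was not tested.

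The shift of the members was also seen among bright probe sets alone. Of the 70 members with a mean signal of at least 1000, the median log2 ratio was -0.14 for PGRP-SC siRNA over control siRNA, -0.30 for PGRP-SC siRNA over uninjected and -0.23 for control siRNA over uninjected, whereas 1838 other genes of that brightness had medians of 0.0067, 0.034 and 0.016. Of the 15 dimmer members 9 are assembly factor genes, and the medians of those with a ratio were -0.08 over 13 genes, 0.10 over 14 and 0.06 over 14. Across the 82 members above the floor, the ratio and the log2 of the mean signal had a Pearson's r of -0.11 for PGRP-SC siRNA over control siRNA, -0.37 for PGRP-SC siRNA over uninjected and -0.43 for control siRNA over uninjected. Spearman's rho was -0.02, -0.15 and -0.29. Across the 72 subunit genes among them Pearson's r was 0.21, 0.01 and -0.22. These are descriptions across genes, since all points come from the same arrays.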

How the data were processed

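RNA of 3 pools of whole embryos was labelled with biotin and hybridised to a 1-colour Affymetrix array, per the labels' protocols. Each probe set had, for each array, 1 deposited signal intensity on a linear scale, from GCOS 1.4 per the submitters' processing notes; other settings are not given in the sources used here. These deposited intensities already had a 2% trimmed mean of 500.1 in each array, and such scaling hides differences in total RNA. Of 15617 probe sets, 115 were the maker's controls; of the other 15502, the platform annotation named 1 gene for 10795, several for 135 and none for 4572, and all 85 member IDs were found under the same symbol in the reference gene table.

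Signals were rescaled to a common 2% trimmed mean, set to a floor at the pooled 40th percentile (101.7), and compared as log2 ratios with Python 3.11.15 (pandas 2.3.3, numpy 2.4.6). Of the alternative normalizations, limma 3.58.1 gave only the cyclic loess. Where 1 of the signals was below the floor the ratio is a bound, and where both were, none was given. Genes were counted at 2-fold and 1.5-fold. With 1 array per group no test, p-value or SD between replicates was computed, and the SDs given are across genes. The scaling and the log2 ratios were tried on simulated data.

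Members and lists were chosen with earlier results of these data known; 198 of 303 list symbols were on the array. Named members include the 3 lowest and 2 highest ratios of each complex and comparison among genes above the floor in every array. Those at least 1.5-fold apart, with a bound or with probe sets over 0.5 apart, and the 3 nearest 0, are also named. Named genes of the pathway lists are the 2 lowest and 2 highest over control siRNA among genes above the floor in every array. Marker lists are given as lists. Other members of a described role, and cycsb and vdac2, were added after their values were seen. Scaling, floor, pseudocount, probe set choice, membership and fold threshold were varied. Promoter and protein sequences were not used here.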

Additional observations from a re-analysis of the deposited data

How the results depend on the processing

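Under all alternatives the median log2 ratio of all members stayed under 0, from -0.15 to -0.07 for PGRP-SC siRNA over control siRNA, from -0.32 to -0.25 for PGRP-SC siRNA over uninjected and from -0.23 to -0.16 for control siRNA over uninjected. Complex V stayed between -0.27 and -0.19, -0.61 and -0.49, and -0.36 and -0.28 in these comparisons. For PGRP-SC siRNA over control siRNA, the sign of complexes II and IV was not stable. Scaling to the median gave complex II 0.058 and complex IV 0.048, and complex IV was 0.0071 after a pseudocount of 50 and 0.0073 both with no floor and with the floor moved to the 20th percentile; median scaling moved the median of all genes to 0.06. With assembly factors left out, or with a mean signal of at least 1000, an alternative chosen after seeing the data, complex II was -0.18 over control siRNA and -0.22 for PGRP-SC siRNA over uninjected.

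Small counts moved as well. Replacing the 2-fold threshold by 1.5-fold gave 7 lower and 1 higher for PGRP-SC siRNA over control siRNA, 18 and 2 for PGRP-SC siRNA over uninjected, and 3 and 2 for control siRNA over uninjected. Members at least 2-fold higher with PGRP-SC siRNA than in uninjected embryos numbered 2 under median scaling, quantile normalization and cyclic loess, and 0 with a floor at the 60th percentile, a pseudocount or a mean signal of at least 1000. With no floor, 1 member, sdhaf3, was at least 2-fold lower over control siRNA. Members at least 1.5-fold higher over control siRNA numbered 0 with a 60th percentile floor, a pseudocount or a mean signal of at least 1000. For PGRP-SC siRNA over uninjected they numbered 0 with a 60th percentile floor or a mean signal of at least 1000 and 1 among subunits alone. For control siRNA over uninjected they numbered 1 under cyclic loess or a pseudocount, and 0 with a 60th percentile floor, among subunits alone or with a mean signal of at least 1000. Fewer members enter the last alternatives, and otherwise the cause was not tested.

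No paired analysis was possible because each group had 1 array, which also leaves no replicate to omit. Signals of cox4i1l, cox4i2 and sdhaf3 lay at or under the floor in at least 1 array, which limits what can be said of them.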

Other observations

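A further probe set is shared by the complex I genes ndufa9a and ndufa9b and is not among the members. It had 1015 with PGRP-SC siRNA, 901.4 with control siRNA and 1109 in uninjected embryos, log2 ratios of 0.17 for PGRP-SC siRNA over control siRNA and -0.13 for PGRP-SC siRNA over uninjected, while the probe set of ndufa9a alone had 0.06 and -0.18. The 3 probe sets of ndufab1a, all above the floor, had log2 ratios of PGRP-SC siRNA over control siRNA from -0.60 to -0.25.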
